A study of Mus musculus with 51 samples.

Results

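The response of prefrontal cortex astrocytes to chronic intermittent ethanol (CIE) was measured by RNA sequencing in 17 libraries, 8 from control and 9 from CIE mice, out of 51 libraries in the series. These libraries were chosen by their labels alone. All mice were adult male C57BL/6J animals. CIE mice inhaled ethanol vapor at 15 to 20 mg per L of air, at an air flow of 10 L per min, 16 h daily in 4 weekly cycles, and were injected with ethanol at 1.6 g per kg (8% w/v) and pyrazole at 1 mmol per kg before the vapor. Control mice breathed air on the same schedule and received saline with pyrazole at 1 mmol per kg, so both groups carried this inhibitor of alcohol dehydrogenase. Cortex was dissociated by enzyme, cleared of myelin on 25% Percoll, and astrocytes were held on magnetic beads against ACSA2, an astrocyte surface antigen. The other libraries were microglia and total homogenate of the same 17 mice, and they enter only where a response is compared between preparations. Interferon-stimulated genes, the Notch pathway and heat shock proteins were set aside, and the account covers the rest of the transcriptome.

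Astrocytes take up glutamate and GABA, buffer potassium, supply lipids and lactate to neurons and surround blood vessels with their end feet. Their mature state is held by transcription factors such as Sox9 and Nfia, and they respond to stress hormones, oxidants and inflammatory signals with distinct sets of genes. Corticosteroids reach the brain from the blood and act on astrocytes through the glucocorticoid receptor, a transcription factor that binds DNA once it holds the hormone.

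Counts assigned to genes ranged from 2082289 to 7189353 in control and from 2498574 to 10041788 in CIE libraries (exact permutation p = 0.161 for the mean log2 total, two-sided). Over all preparations on 1 scale of CPM (counts scaled by TMM factors to a common library size), the water channel Aqp4 had 478 CPM (mean, n = 17) in astrocytes, 147 in homogenate and 8.86 in microglia, and Gja1 and Aldh1l1 followed the same order. The astrocyte libraries also held RNA of other cells: the myelin gene Mbp had 2275 CPM against 1039.7 in homogenate, and the microglial receptor Cx3cr1 had 595 against 4044 in microglia. Summed markers of the groups overlapped for each of 11 cell types. Oligodendrocyte markers summed to more than astrocyte markers did, with medians of 26952 CPM in control and 28611 CPM in CIE libraries. No fit held their level constant, and values given for astrocytes are those of the whole preparation. Astrocyte markers summed to between 13453 and 23246 CPM (median 19536) in control and between 12040 and 20237 (median 16175) in CIE libraries, and border macrophage and monocyte markers to between 265 and 700.4 (median 533) and between 390.4 and 1075 (median 717). Cd163, Lyz2 and Siglec1, markers of border macrophages, rose. In that list 3 of the 11 tested members passed the test, all higher, against 2.91% higher among all genes tested. Fewer cells of a type and less RNA per cell cannot be told apart in such bulk samples. The part of these cells in the results was not tested. The fits named beside each result hold the level of a marker list constant, as the mean log2 CPM of its tested members. A marker list that itself differs between the groups, as the border macrophage list did in 3 members, cannot separate these cells from the treatment.

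Across the genome, 661 of 12878 genes tested differed between CIE and control astrocytes at an adjusted p under 0.05 (edgeR quasi-likelihood test, Benjamini-Hochberg adjustment over all genes tested, used throughout with log2 fold changes of CIE over control), which is 5.13% of them. Higher genes made up 2.91% and lower genes 2.22% of those tested. Outside the interferon, Notch and heat shock lists 618 genes remained, 351 higher with a median log2 fold change of 0.60 and 267 lower with a median of -0.53. Most of them, 525, belonged to none of the gene lists described here. Large changes were rarer: of all called genes, 87 rose by more than 1 and 25 fell below -1 on the log2 scale. In 51 genes, or 0.396% of those tested, no CIE mouse overlapped any control mouse, and 49 of these were called. With the marker level of border macrophages held constant (a fit added once the data had been seen), 139 genes were called, of which 115 were among the 661.

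**Figure D1:**
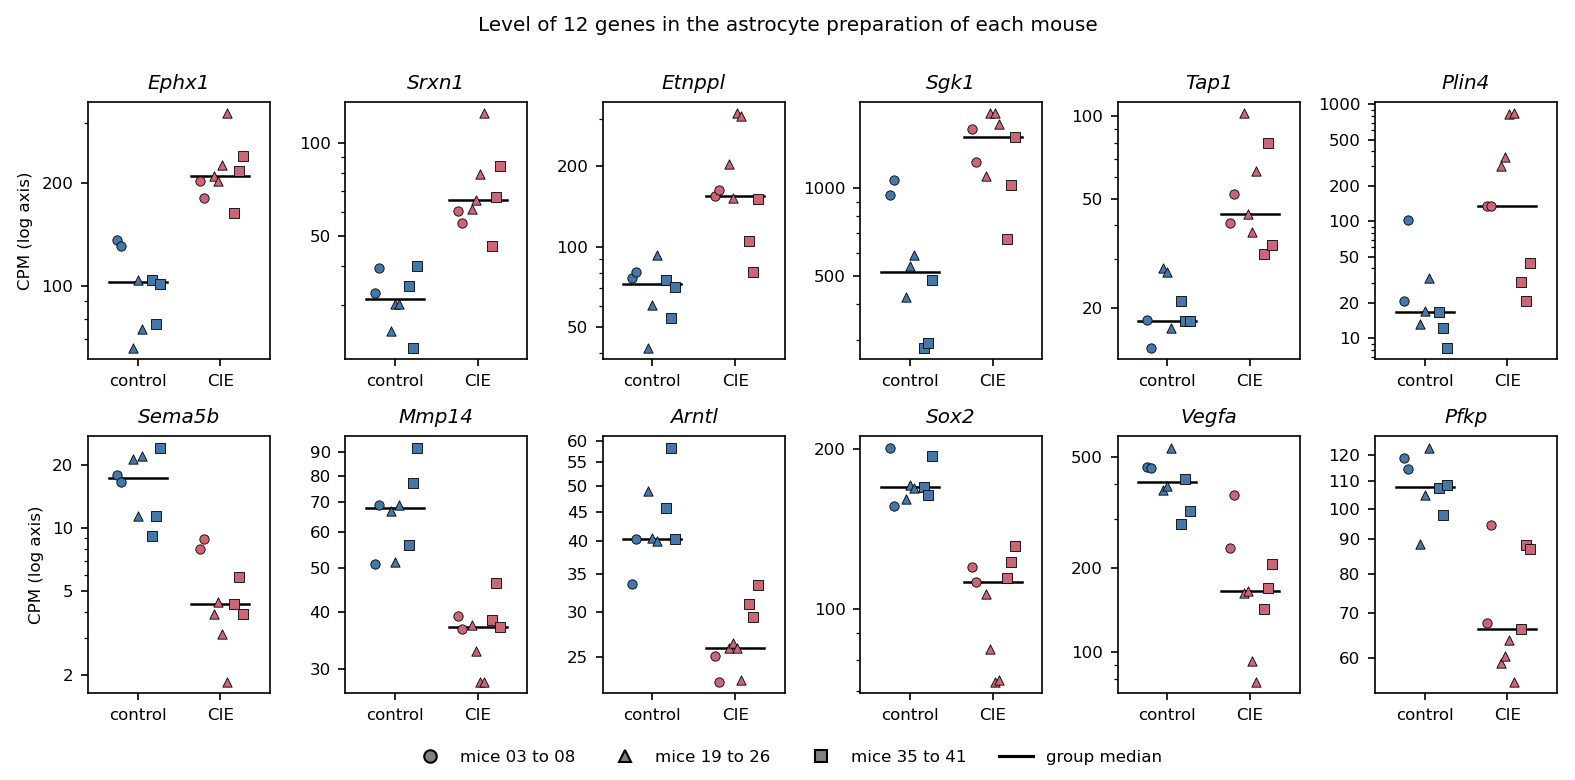
Level of 12 genes in the astrocyte library of each mouse, in CPM on a log axis. Points are mice, shapes are the 3 ranges of mouse numbers and bars are group medians. The groups do not overlap for Ephx1, Srxn1, Tap1, Sema5b, Mmp14, Arntl and Sox2, while Plin4 spans 20.9 to 841 CPM within the CIE group.

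The gene with the smallest p was Ephx1, microsomal epoxide hydrolase, a detoxifying enzyme on chromosome 1 (180989556 to 181017569, mm10). It lay between 65.9 and 136 CPM (median 103) in control and between 163 and 320.0 CPM (median 209.9) in CIE astrocytes. The log2 fold change was 1.143 (standard error, SE, 0.15, adjusted p = 0.000827), and every CIE mouse lay above every control mouse. Srxn1, sulfiredoxin, which restores oxidised peroxiredoxins, lay between 21.8 and 39.9 CPM (median 31.4) in control and between 46.5 and 125 (median 65.3) in CIE astrocytes. The change was 1.18 on the log2 scale (SE 0.17, adjusted p = 0.00152), again without overlap. Both rises held in each of 17 fits without 1 mouse and in each of 11 other fits. The control mean of Srxn1, on the scale shared by the preparations, was 28.5 CPM in astrocytes and 78.2 CPM in homogenate.

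Other rises without overlap came from genes at lower levels. Fmod, fibromodulin, a collagen-binding proteoglycan, went from a median of 3.55 CPM (1.53 to 4.56) in control to 14.01 CPM (5.82 to 30.6) in CIE astrocytes, with a log2 difference of 2.15 (SE 0.33, adjusted p = 0.00215). Ch25h, which makes 25-hydroxycholesterol, had a median of 0.917 CPM (0.306 to 1.89) in control and 3.77 CPM (1.98 to 9.87) in CIE astrocytes and rose by 2.35 (SE 0.38, adjusted p = 0.00364). For both, the highest control lay under the lowest CIE mouse, but the control values of Ch25h rest on few counts. Dmp1, a secreted phosphoprotein known from bone, rose from a median of 47.8 to 78.7 CPM, by 0.81 on the log2 scale (SE 0.11, adjusted p = 0.0013). Tab1, a partner of the kinase TAK1, showed how small a shift could separate the groups: controls lay between 35.1 and 41.3 CPM and CIE mice between 42.2 and 52.9, a log2 fold change of 0.34 (SE 0.06, adjusted p = 0.00448).

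Among the falls, Mmp14, a membrane-bound metalloprotease that cleaves extracellular matrix, lay between 51.1 and 92.2 CPM (median 67.8) in control and between 28.2 and 46.4 CPM (median 37.2) in CIE astrocytes. The groups did not overlap, and the log2 fold change was -0.89 (SE 0.12, adjusted p = 0.00106). Ptpn5, the phosphatase STEP, had a median of 11.2 CPM in control and 3.49 CPM in CIE astrocytes (log2 fold change -1.42, SE 0.21, adjusted p = 0.00195). On the scale shared by the preparations, its control mean was 9.37 CPM in astrocytes and 221 CPM in homogenate. The part of other cells in its fall was not tested. Ephb3, an ephrin receptor, fell by 0.64 (SE 0.11, adjusted p = 0.00383), and the ephrin Efnb2 fell by 0.80 (SE 0.14, adjusted p = 0.00449), both without overlap of the groups. The control mean of Efnb2 on the shared scale was 22.7 CPM in astrocytes and 78.1 CPM in homogenate. Celsr1, a cadherin of planar cell polarity, changed by -0.81 (SE 0.14, adjusted p = 0.00433) and the ubiquitin ligase Trim9, a partner of netrin signaling, by -0.86 (SE 0.14, adjusted p = 0.00416). Trim9 lay between 229.8 and 293 CPM in control and between 84.3 and 209 CPM in CIE astrocytes.

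Of the semaphorins, plexins and neuropilins, guidance ligands and their receptors, 4 of 30 tested genes were lower and none was higher, against 2.22% lower among all genes tested. Their median log2 fold change was -0.13 against 0.00 (0.00332) over all genes tested. The ligands were Sema5b and Sema4a. Sema5b, on chromosome 16 (35541154 to 35664261), had between 9.18 and 24.3 CPM (median 17.3) in control and between 1.85 and 8.88 CPM (median 4.34) in CIE astrocytes, without overlap. Within the 3 ranges of mouse numbers its log2 difference was -1.01, -2.34 and -1.49. On the scale shared by the preparations, its control mean was 15.1 CPM in astrocytes and 35.4 CPM in homogenate. The part of other cells in the fall of Sema5b was not tested. The receptors Plxnd1 and Plxna1 had log2 fold changes of -0.61 and -0.39 (adjusted p = 0.0297 and 0.0312), and each call was lost in 5 of 17 fits without 1 mouse, those without 24, 25, 26 and 36 and without 35 for Plxnd1 or 22 for Plxna1. Sema4a, Plxnd1 and Plxna1 also lost their calls with either the precursor or the border macrophage markers held constant, and Sema5b did not.

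**Figure D2:**
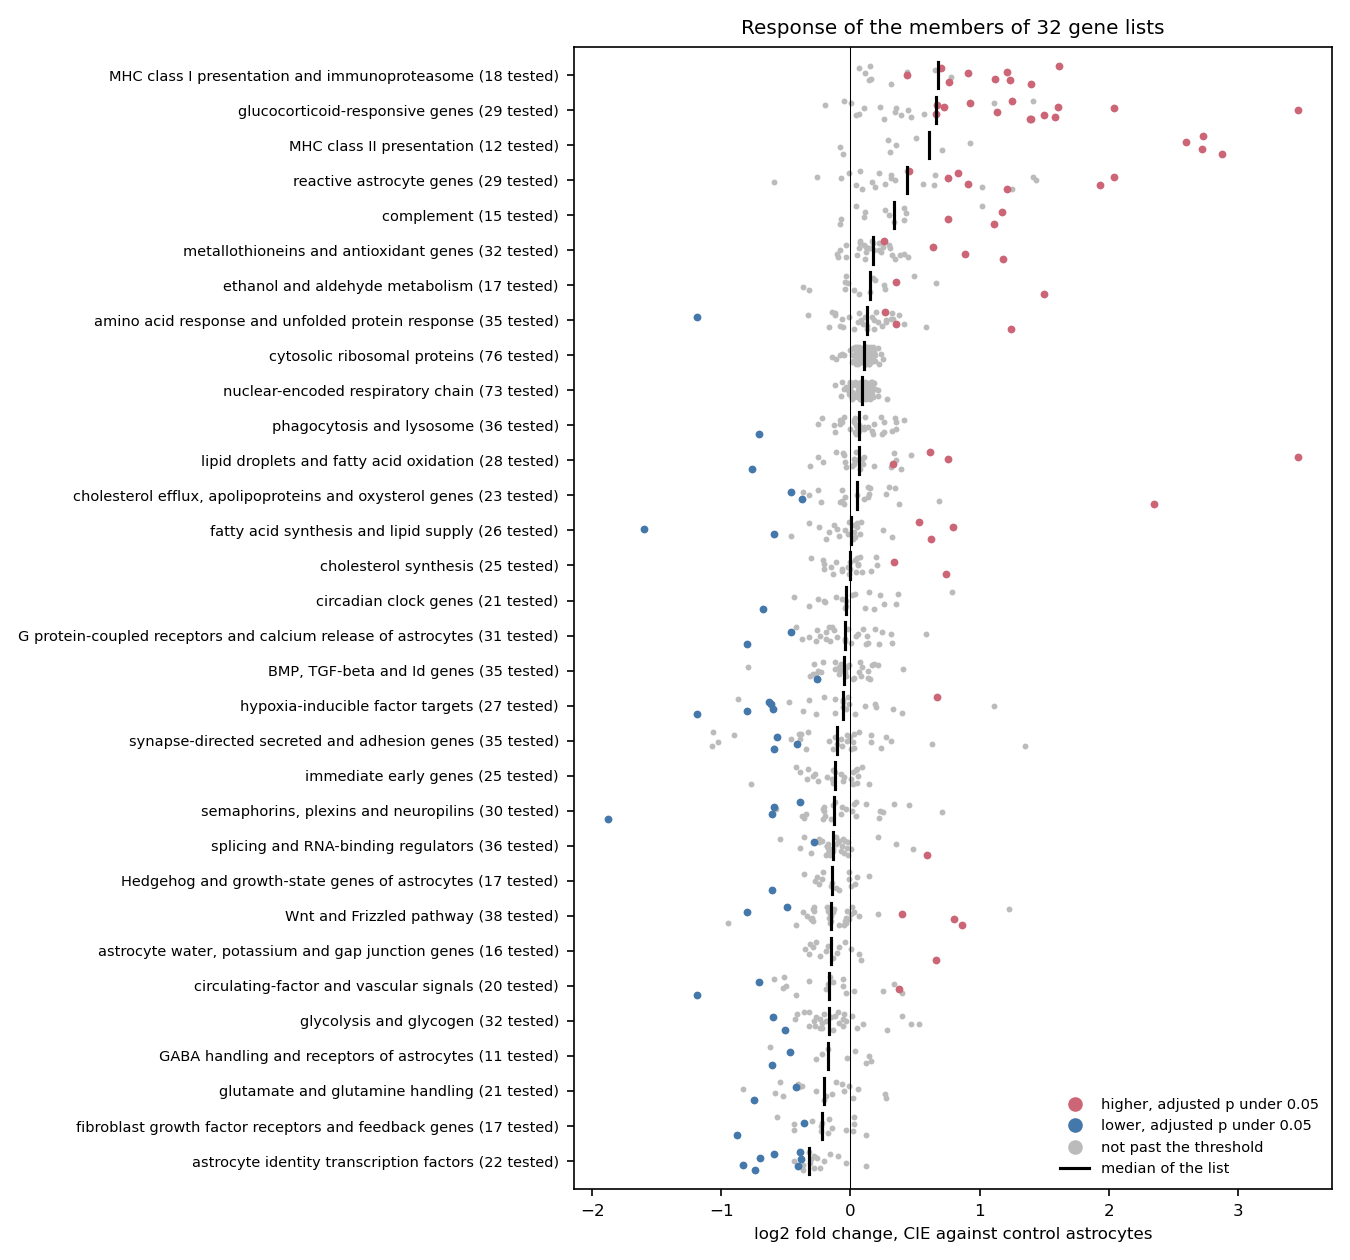
Log2 fold change of CIE against control astrocytes (x axis) for each tested member of 32 gene lists (rows, ordered by the median, black bars). Red and blue points passed the test as higher or lower and grey points did not. The glucocorticoid-responsive genes hold 13 red points and no blue one, and the identity transcription factors 7 blue points and no red one. Over all genes tested 2.91% were higher and 2.22% lower.

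Glucocorticoid-responsive genes held the most calls of the 32 lists, which differ in size and were chosen with earlier results of these data known. The MHC class I list held more as a share of its tested members, with 9 of 18. Of the 29 tested glucocorticoid-responsive genes 13 were higher and none was lower, against 2.91% higher among all genes tested. Their median log2 fold change was 0.66, and 27 of the 29 estimates were positive. Etnppl, an enzyme that breaks down phosphoethanolamine, lay between 42.0 and 92.8 CPM (median 72.8) in control and between 80.4 and 316 CPM (median 155) in CIE astrocytes. It rose by 1.40 (SE 0.24, adjusted p = 0.00433), and each of the 9 CIE mice was above the control median, although the groups overlapped. Sgk1, a serum- and glucocorticoid-induced kinase, lay between 283 and 1068 CPM (median 513) in control and between 667 and 1809 CPM (median 1497) in CIE astrocytes. Its log2 fold change was 1.25 (SE 0.26, adjusted p = 0.0102), and 2 control mice, numbered 03 and 05, lay above the lowest CIE mouse. Tsc22d3, also called Gilz, rose from a median of 268 to 544 CPM, by 0.93 (SE 0.20, adjusted p = 0.0112).

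Fkbp5, a co-chaperone that dampens the receptor, was more variable. It lay between 15.9 and 44.9 CPM (median 24.5) in control and between 18.2 and 267 CPM (median 89.8) in CIE astrocytes, with a log2 fold change of 2.04 (SE 0.42, adjusted p = 0.0104). CIE mice 39 and 40 stayed within the control range, and 8 of 9 were above the control median. Arrdc2, an arrestin-like gene, rose by 1.58 (SE 0.34, adjusted p = 0.0123), Cebpd, a transcription factor of acute responses, by 0.73 (SE 0.13, adjusted p = 0.00459) and Gjb6, the gap junction protein connexin 30, by 0.66 (SE 0.13, adjusted p = 0.00891). The growth inhibitor Ddit4, the cell cycle inhibitor Cdkn1a, the sulfotransferase Sult1a1, the phospholipase Pla2g3, the kinase Map3k6 and the lipid droplet gene Plin4 completed the 13.

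Not every known target moved. Dusp1 (log2 fold change 0.04), Errfi1 (0.01), Per1 (0.23) and Glul (-0.05) did not pass the test, nor did Nr3c1, the receptor itself, at -0.19 (SE 0.09, adjusted p = 0.219). Between 11 and 15 members were called in the fits without 1 mouse and 14 with the level of oligodendrocyte precursor markers held constant, but 6 with that of border macrophage markers held constant. Etnppl, Sgk1, Cebpd and Ddit4 were among the calls in that last fit, while Fkbp5, Gjb6 and Plin4 were not.

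The promoters of these genes were searched for a spaced palindrome of the glucocorticoid receptor in RefSeq windows of GRCm38.p6 (the mm10 build), each 300 bases long with 250 before and 50 after a transcription start. The letters ACANNNTGT, which read the same on both strands, stood in 6.85% of 32851 windows. Of the 11 called members with a window 2 held them in at least 1 window, Sgk1 and Map3k6. A gene can have several windows, so the count of genes and the share of windows are in unlike units. Each stretch is printed 5′ to 3′ on the strand of the gene, with the match in capitals, to show the site beside the measured rise. The Sgk1 stretch is chr10:21993679-21993737, plus strand, with the match 186 to 178 bases before 1 of the 6 starts listed. Another of these starts had a match too, 127 to 119 bases before it, and its stretch is not printed. The Map3k6 stretch is chr4:133240614-133240672, plus strand, with the match 179 to 171 bases before the start.
Sgk1: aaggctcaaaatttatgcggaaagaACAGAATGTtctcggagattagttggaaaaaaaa
Map3k6: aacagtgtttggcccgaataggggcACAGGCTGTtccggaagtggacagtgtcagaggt
Map3k6, a stress-activated kinase of the MAP kinase cascade, had a median of 7.18 CPM (4.597 to 32.9) in control and 25.7 CPM (10.9 to 82.0) in CIE astrocytes, and its adjusted p of 0.0499 lay just inside the threshold (log2 fold change 1.61, SE 0.47). A match in a window is a description of its letters and does not show that the receptor is bound there.

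Astrocyte identity transcription factors pointed the other way. Of 22 tested members 7 were lower, against 2.22% lower among all genes tested, and none was higher. Of the 22 estimates 21 were negative, with a median of -0.32. Sox2, a factor of neural progenitors and astrocytes, lay between 157 and 202 CPM (median 169.5) in control and between 72.8 and 131 CPM (median 113) in CIE astrocytes. The log2 fold change was -0.74 (SE 0.11, adjusted p = 0.00259), and the groups did not overlap. Rfx4, a factor of neural tube patterning, also fell without overlap, from a median of 68.0 to 46.2 CPM, by 0.70 (SE 0.13, adjusted p = 0.00525).

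Sox9 lay between 204 and 259 CPM (median 244) in control and between 148 and 239 CPM (median 179) in CIE astrocytes and fell by 0.39 (SE 0.09, adjusted p = 0.0173). Sox21 was lower by more, with a log2 fold change of -0.83 (SE 0.17, adjusted p = 0.011), and 8 of 9 CIE mice were below its control median. Nfia (-0.38, adjusted p = 0.0277), Otx1 (-0.41, adjusted p = 0.0396) and Hopx (-0.59, adjusted p = 0.0441) completed the calls. Pou3f2, a neural factor outside the list, fell by 0.69 without overlap (SE 0.12, adjusted p = 0.00448). The count was 4 without control mouse 22 and 3 with either the border macrophage or the oligodendrocyte precursor markers held constant, and Sox2, Rfx4 and Sox9 held in each fit tried.

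The 3 markers that define the preparation did not pass the test. Aqp4 lay between 387 and 777 CPM (median 581) in control and between 349.6 and 698 CPM (median 483) in CIE astrocytes, with a log2 fold change of -0.18 (SE 0.15, adjusted p = 0.533). Gja1 changed by -0.13 (SE 0.11, adjusted p = 0.531) and Aldh1l1 by -0.04 (SE 0.10, adjusted p = 0.862), and the groups overlapped for all 3 genes. Over all 15 astrocyte markers 1 was higher (Gjb6) and 1 lower (Sox9), with a median of -0.18 and 3 positive estimates. Among 16 water, potassium and gap junction genes 1 passed the test, again Gjb6, against 5.13% of all genes tested. This list had a median of -0.15 and 4 positive estimates, so most estimates of both lists were below 0.

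Of 17 fibroblast growth factor receptors and feedback genes 2 were lower (Etv4 and Spry4), of 17 Hedgehog and growth-state genes 1 was lower (Gli3), and none of either list was higher, against 2.22% lower among all genes tested. Fgf11, an intracellular member of the growth factor family that is in neither list, had between 12.97 and 20.7 CPM in control and between 6.59 and 11.8 CPM in CIE astrocytes, with a log2 difference of -0.82 (SE 0.13, adjusted p = 0.00364), without overlap. Etv4, a transcription factor switched on by fibroblast growth factors, fell by 0.88 (SE 0.19, adjusted p = 0.0122). Gli3, a transcription factor of the Hedgehog pathway, fell by 0.61 (SE 0.13, adjusted p = 0.0109). The calls of Fgf11, Etv4 and Gli3 held in each fit without 1 mouse, but those of Etv4 and Gli3 were lost with border macrophage markers held constant, as was that of Spry4, at -0.36 (SE 0.09, adjusted p = 0.0335), which was also lost without mouse 19, 24, 25, 26 or 36. In the Wnt list, 3 of 38 tested genes were higher and 2 lower, against 2.91% and 2.22% of all genes tested. The ligand Wnt5a rose from a median of 8.91 to 14.9 CPM (log2 fold change 0.86, SE 0.16, adjusted p = 0.00685). Its Frizzled receptors moved apart, with Fzd1 at 0.81 (SE 0.19, adjusted p = 0.0197) and Fzd2 at -0.80 (SE 0.15, adjusted p = 0.00685), and both receptor calls were lost with border macrophage markers held constant.

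Genes of antioxidant defence and of ethanol breakdown moved upward where they moved. Of 32 tested metallothioneins and antioxidant genes 4 were higher (Srxn1, Gclm, Nqo1 and Keap1) and none was lower. Over all genes tested 2.91% were higher. Gclm, the modifier subunit of glutathione synthesis, lay between 75.3 and 101 CPM (median 82.5) in control and between 83.1 and 194 CPM (median 124) in CIE astrocytes, with a log2 difference of 0.64 (SE 0.13, adjusted p = 0.00965). Nqo1, a quinone reductase, rose by 0.89 (SE 0.24, adjusted p = 0.0344), and Keap1, the sensor that restrains the factor Nrf2, by 0.26 (SE 0.07, adjusted p = 0.0358). With border macrophage markers held constant Srxn1 was called and Gclm, Nqo1 and Keap1 were not, and Nqo1 and Keap1 lost their calls in 7 and 11 of the 17 fits without 1 mouse.

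A core of the antioxidant element, TGACNNNGC, chosen after the genes were seen and searched on both strands, stood in 12.4% of promoter windows and in those of Srxn1 and Gclm among these 4 genes. The Gclm stretch, chr3:122245398-122245456 on the plus strand, is shown because it lies in the window of a called gene, with the match in capitals on the opposite strand, 134 to 126 bases before the start.
Gclm: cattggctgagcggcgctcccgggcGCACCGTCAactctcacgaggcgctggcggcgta
Of 17 genes of ethanol and aldehyde metabolism, Sult1a1 and Aldh2 were higher and none was lower, against 2.91% higher among all genes tested. Sult1a1, which sulfonates phenols, lay between 11.2 and 25.1 CPM (median 15.0) in control and between 20.1 and 98.9 CPM (median 34.5) in CIE astrocytes and rose by 1.502 (SE 0.32, adjusted p = 0.0112). Sult1a1 lost its call with border macrophage markers held constant. Aldh2, the mitochondrial enzyme that clears acetaldehyde, rose by 0.35 (SE 0.10, adjusted p = 0.0469), and 13 of 17 fits without 1 mouse missed this call. The Aldh2 call was also lost with border macrophage markers held constant and with upper quartile scaling.

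Targets of the hypoxia-inducible factor fell in part. Of 27 tested genes 5 were lower (Vegfa, P4ha1, Plod2, Ak4 and Adm) and Ddit4 was higher, with a median over the list of -0.06. Over all genes tested 2.22% were lower and 2.91% higher. Vegfa, the vascular growth factor, lay between 287 and 541 CPM (median 406) in control and between 78.2 and 365 CPM (median 166) in CIE astrocytes. It fell by 1.19 (SE 0.23, adjusted p = 0.00705), and each of 9 CIE mice was below the control median, with log2 differences of -0.64, -1.87 and -0.98 in the 3 ranges of mouse numbers. The collagen hydroxylases P4ha1 and Plod2 fell by 0.63 (SE 0.12, adjusted p = 0.00767) and by 0.60 (SE 0.12, adjusted p = 0.0102). Glycolytic targets such as Ldha (-0.20, adjusted p = 0.304) and Pgk1 (-0.27, adjusted p = 0.204), and Hif1a itself (-0.05, adjusted p = 0.755), did not pass the test. The count of lower genes was 3 without mouse 22, without 24 or without 26, and 0 with border macrophage markers held constant.

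The core of the hypoxia response element, ACGTG on either strand, stood in 19.6% of promoter windows. Of the 5 called members with a window 4 held it in at least 1 window, Vegfa in 1 of 2 and Ak4 in 1 of 4. The count of genes and the share of windows are in unlike units. Of the 4 genes, P4ha1 had fallen and Ddit4 had risen, and their stretches are given to show that both directions carry the letters. P4ha1 is chr10:59323255-59323295, plus strand, with the match 16 to 12 bases before the start and read on the opposite strand, and Ddit4 is chr10:59951928-59951982, minus strand, with the match 187 to 183 bases before the start.
P4ha1: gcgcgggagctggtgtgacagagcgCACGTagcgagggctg
Ddit4: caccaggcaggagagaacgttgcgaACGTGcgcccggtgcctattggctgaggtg
Phosphofructokinase sets the pace of glycolysis. Its liver type Pfkl and platelet type Pfkp, both lower, were the calls among 32 genes of glycolysis and glycogen. Over all genes tested 2.22% were lower. Pfkp lay between 88.5 and 123 CPM (median 108) in control and between 55.2 and 94.4 CPM (median 66.2) in CIE astrocytes, with a log2 difference of -0.60 (SE 0.11, adjusted p = 0.00484). Pfkl changed by -0.51 (SE 0.09, adjusted p = 0.00483), and both calls held in each fit tried.

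Lipid genes moved in both directions, with 2 of 25 cholesterol synthesis genes higher, 3 of 26 genes of fatty acid synthesis and lipid supply higher and 2 lower, and 4 of 28 lipid droplet and oxidation genes higher and 1 lower. Over all genes tested 2.91% were higher and 2.22% lower. Insig1, which holds back sterol synthesis when sterols are plentiful, lay between 240.3 and 444 CPM (median 320.1) in control and between 370.0 and 673 CPM (median 549.9) in CIE astrocytes and rose by 0.74 (SE 0.13, adjusted p = 0.00531). The other call among the genes of cholesterol synthesis was Ebp, at 0.33 (SE 0.10, adjusted p = 0.0478), a call missed in 13 of 17 fits without 1 mouse, and the median was -0.01 (for example Idi1 at -0.20, not called). Dgat2, which completes triglycerides, rose by 0.62 (SE 0.14, adjusted p = 0.0177), and Acacb, an acetyl-CoA carboxylase, by 0.80 (SE 0.19, adjusted p = 0.0226). Scd1, a desaturase, rose by 0.53 (SE 0.13, adjusted p = 0.026), while the mitochondrial acyltransferase Gpam fell by 0.59 (SE 0.14, adjusted p = 0.0236). The call of Scd1 was lost without mouse 36 and that of Gpam without mouse 22 (adjusted p = 0.0538). Both were also lost with either the precursor or the border macrophage markers held constant. Fabp7, the brain fatty acid binding protein, was lower as well. The higher lipid droplet genes were Plin4, the lipases Lipe (0.33, adjusted p = 0.0226) and Pnpla2 (0.62, adjusted p = 0.0368), and Ucp2 (0.75, adjusted p = 0.0394), and with border macrophage markers held constant none of the list was called. The lipase calls were also lost without 1 mouse, in 2 fits for Lipe (without 24 or 36) and in 10 of 17 for Pnpla2. The lower gene was Mgll, which breaks down the endocannabinoid 2-AG. It lay between 459 and 809 CPM (median 596) in control and between 220.3 and 559 CPM (median 342) in CIE astrocytes. The gene fell by 0.76 (SE 0.16, adjusted p = 0.0112), and the sterol exporter Abcg4 fell by 0.46 (SE 0.10, adjusted p = 0.0126), with both calls lost once either border macrophage or oligodendrocyte precursor markers were held constant.

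Transmitter handling moved little, and the calls pointed down. Of 21 glutamate genes 2 were lower, Grin2c, an NMDA receptor subunit of astrocytes, and Glud1, glutamate dehydrogenase, and of 11 GABA genes 2 were lower, Slc6a11, the GABA transporter GAT-3, and the receptor subunit Gabbr2. Lower genes made up 2.22% of all those tested. Slc6a11 lay between 714 and 1435 CPM (median 827) in control and between 387 and 744 CPM (median 585) in CIE astrocytes (log2 fold change -0.61, SE 0.15, adjusted p = 0.0241). Glud1 changed by -0.42 (SE 0.11, adjusted p = 0.0279) and Grin2c by -0.74 (SE 0.18, adjusted p = 0.024). All 4 calls were lost without control mouse 22 (adjusted p = 0.0573 for Grin2c and 0.0666 for Gabbr2), further ones without mouse 25, 26 or 36, and with border macrophage or oligodendrocyte precursor markers held constant. Mfge8, a secreted bridge to phagocytes that astrocytes make in quantity, fell from a median of 1428 to 966 CPM, by 0.71 (SE 0.16, adjusted p = 0.018), and was the call among 36 genes of phagocytosis and the lysosome, lost with either marker list held constant.

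Of the clock genes 1 of 21 passed, against 5.13% of all genes tested. Arntl, also called Bmal1, the partner of Clock, lay between 33.6 and 58.3 CPM (median 40.3) in control and between 22.6 and 33.4 CPM (median 25.9) in CIE astrocytes. It fell by 0.68 (SE 0.10, adjusted p = 0.00195), without overlap, by a like amount in each range of mouse numbers (-0.62, -0.76 and -0.60). The E-box CACGTG stood in 7.15% of promoter windows and in neither of the 2 windows of Arntl. Tef (0.35, adjusted p = 0.0929) and Rorb (-0.44, adjusted p = 0.0623) were the nearest to the threshold among the others.

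Immune lists kept apart from the set aside interferon list moved upward together with border macrophage markers. Whether their rise is separate from that of the interferon list, with 24 of 57 tested genes higher, was not tested. Over all genes tested 2.91% were higher. Of 18 genes of MHC class I presentation 9 were higher and none was lower (median 0.68). Tap1, the peptide transporter, lay between 14.3 and 27.8 CPM (median 17.9) in control and between 31.3 and 102 CPM (median 43.8) in CIE astrocytes and rose by 1.40 without overlap (SE 0.23, adjusted p = 0.00365). H2-T23, a nonclassical class I gene, rose by 1.21 (SE 0.20, adjusted p = 0.00417). The class I count was 4 without mouse 22, 5 without mouse 36, 3 with oligodendrocyte precursor and 2 with border macrophage markers held constant. The 4 class II genes that were higher, of 12 tested, lost their calls in that last fit. Of 15 complement genes 3 were higher, led by C4b, which lay between 90.4 and 220.3 CPM (median 101) in control and between 161 and 338 CPM (median 213) in CIE astrocytes (log2 fold change 1.11, SE 0.19, adjusted p = 0.00448). C1ra and Serping1 lost their calls with either precursor or border macrophage markers held constant, and without 1 mouse in 4 fits for C1ra (19, 22, 26 or 36) and 10 of 17 for Serping1, so that 1 complement gene was called with border macrophage markers held constant or without mouse 19, 22, 26 or 36.

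Reactive astrocyte genes gave 7 of 29 higher and none lower (median 0.43), against 2.91% higher among all genes tested. The 7 were H2-T23, Fkbp5, H2-D1, Cp, Serping1, Fbln5 and Aspg. Of these H2-T23 and H2-D1 are class I genes and Fkbp5 is a glucocorticoid target, so the list shares members with those above. The count was 2 without mouse 22, 4 with precursor and 2 with border macrophage markers held constant, and 14 with DESeq2. Fkbp5, H2-D1 and Serping1 lost their calls with border macrophage markers held constant, Serping1 lost it in 10 and Cp in 5 of 17 fits without 1 mouse, and H2-T23 kept it in each fit tried. The classical marker Gfap, the filament protein of reactive astrocytes, lay between 38.7 and 118 CPM (median 52.0) in control and between 37.8 and 134 CPM (median 63.4) in CIE astrocytes, with a log2 difference of 0.34 (SE 0.26, adjusted p = 0.474). Vim (-0.02, SE 0.19), Cd44 (0.04, SE 0.25) and Stat3 (0.09, SE 0.10) did not pass either.

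In the amino acid and unfolded protein response 3 of 35 genes were higher and Vegfa, which the list also holds, was lower. The shares over all genes tested were 2.91% higher and 2.22% lower. Atf5, a factor of the mitochondrial stress response, lay between 17.2 and 40.3 CPM (median 27.6) in control and between 31.8 and 101 CPM (median 65.2) in CIE astrocytes and rose by 1.25 (SE 0.21, adjusted p = 0.00448), a call lost with border macrophage markers held constant. Immediate early genes, which dissociation can switch on, gave no call among 25 (median -0.12), with Fos at -0.08 (SE 0.17) and Jun at -0.14 (SE 0.17). No call came from 76 ribosomal proteins (median 0.11) or from 73 nuclear-encoded respiratory chain genes (median 0.09), whose members lay between -0.14 and 0.26 and between -0.12 and 0.28.

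**Figure D3:**
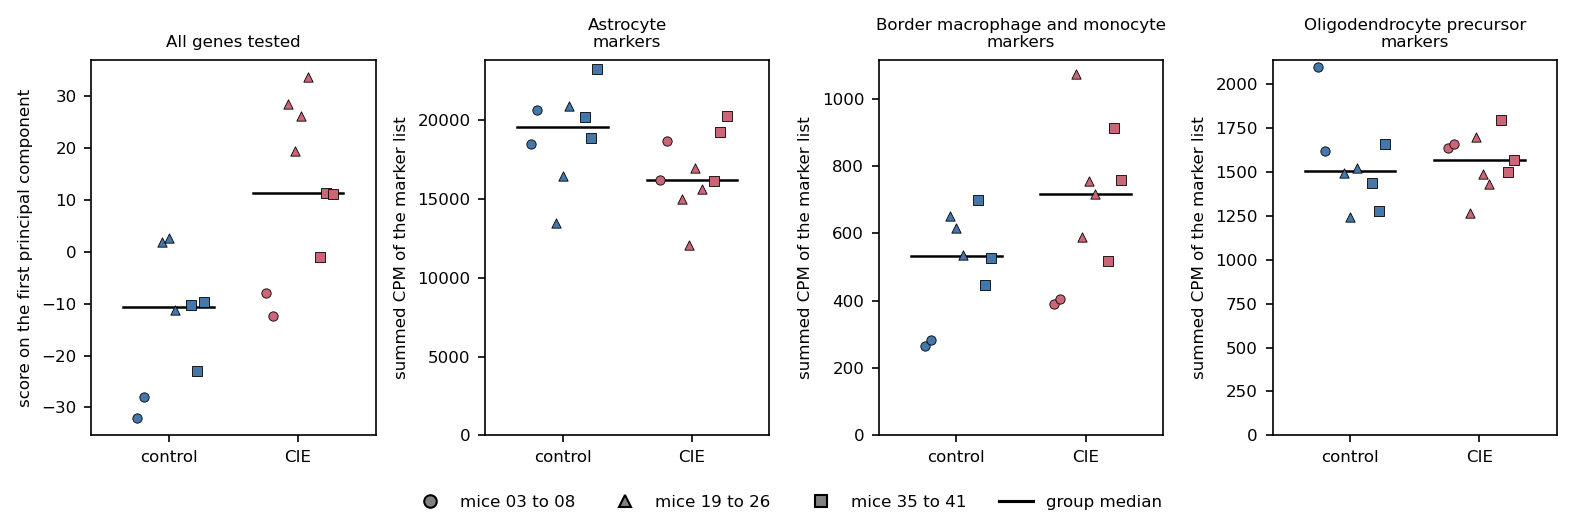
Score of each mouse on the first principal component of all genes tested (left) and summed CPM of the astrocyte, border macrophage and oligodendrocyte precursor markers. Points are mice, shapes are ranges of mouse numbers and bars are group medians. Within each range every CIE mouse scored above every control mouse, although over all ranges controls (-32.1 to 2.74) and CIE mice (-12.4 to 33.7) overlapped.

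The size of the response varied with the range of mouse numbers, which may mark cohorts, though the labels do not say so. Called higher genes outside the set aside lists had a median log2 difference of 0.32 among mice 03 to 08 (2 control, 2 CIE), 0.80 among mice 19 to 26 (3 control, 4 CIE) and 0.46 among mice 35 to 41 (3 control, 3 CIE). Called lower genes had -0.29, -0.71 and -0.42. The sign was shared by all 3 ranges for 331 of the 351 higher and 257 of the 267 lower genes, a description, since the calls were made on these mice. With the range as a covariate 1129 genes were called, among them all 661. The first component, 23.6% of the variance, ordered CIE above control mice within each range. The genes that weighed most on its positive side included Plin4, the class II genes Cd74 and H2-Ab1 and the border macrophage marker Siglec1. Those on its negative side included Hes5, Sema5b, Vegfa and the precursor markers Gpr17, C1ql1, Lhfpl3 and Neu4. The part of other cells in this component was not tested.

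Where the called genes are expressed in control tissue differed by direction of change. In control mice 58.4% of the lower genes (156 of 267) were over 2-fold higher in homogenate than in microglia, against 28.8% of all genes tested and 29.3% of the higher genes. Conversely, 30.5% of the higher genes (107 of 351) and 12.4% of the lower genes were over 2-fold higher in microglia than in homogenate, against 22.4% of all genes tested. These shares are a description and come with no test.

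**Figure D4:**
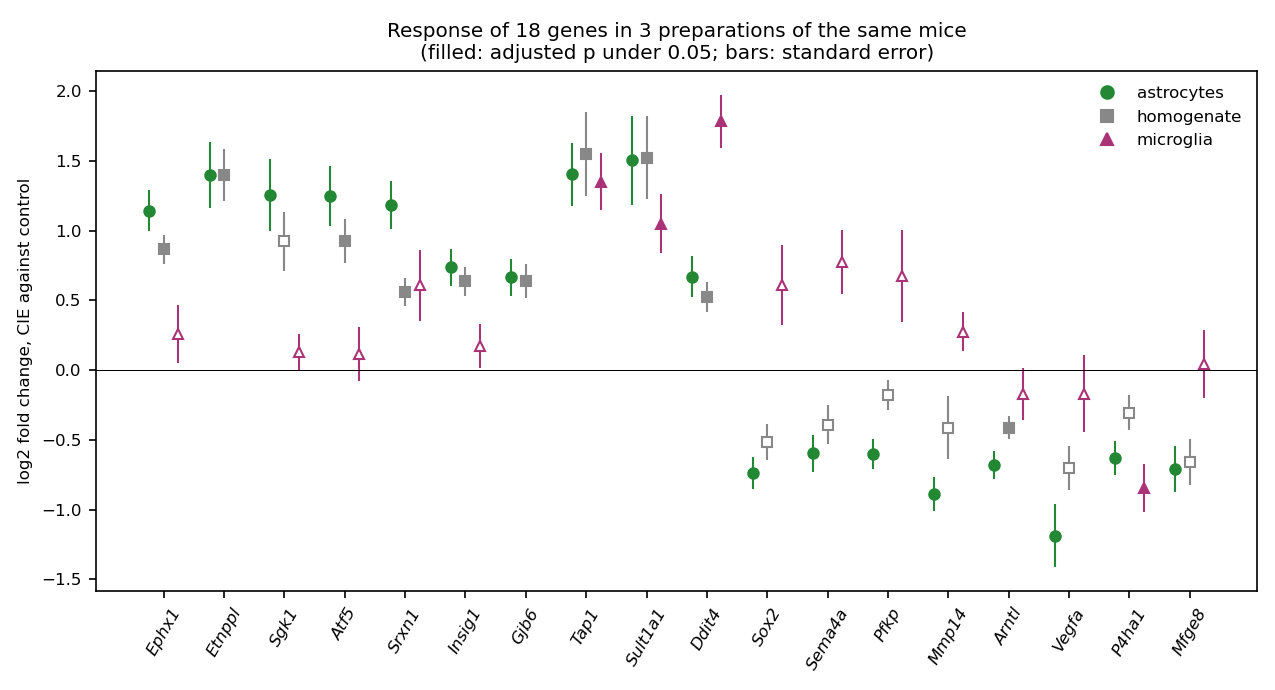
Log2 fold change of CIE against control for 18 genes in astrocytes, homogenate and microglia of the same mice, with SEs. Filled points passed the test in that preparation, and a gene that a preparation did not pass the filter on low counts for has no point. Ephx1, Etnppl, Atf5, Insig1 and Gjb6 rose in astrocytes and homogenate, and Sema4a, Pfkp and Mmp14 fell in astrocytes while their microglia estimates were above 0.

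Other preparations of the same mice gave fewer calls, 35 of 13982 genes in homogenate (0.25%) and 373 of 10761 in microglia (3.47%). Side by side, Ephx1 changed by 1.143 in astrocytes, 0.87 in homogenate (adjusted p = 0.000502) and 0.26 in microglia (adjusted p = 0.617). Etnppl had the same log2 fold change of 1.40 in astrocytes and in homogenate (adjusted p = 0.00178 there), and Arntl was at -0.68 in astrocytes and -0.41 in homogenate (adjusted p = 0.03). Only 1 of 14379 genes (0.00695%) differed in response between astrocytes and homogenate in a test of the interaction, at an adjusted p under 0.05 (717 at an unadjusted p under 0.05). That gene was Otof, a calcium sensor of vesicle fusion, which lay between 3.45 and 7.57 CPM in control and between 6.36 and 36.9 CPM in CIE astrocytes. It rose by 1.70 (SE 0.32, adjusted p = 0.00628) in astrocytes, and its response there exceeded that in homogenate by 2.12 (SE 0.40, adjusted p = 0.0395).

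Against microglia 76 genes (0.529%) differed in response, 17 with the higher and 59 with the lower value in astrocytes, and 19 of the 76 were also called in astrocytes. Mmp14 fell in astrocytes and was at 0.28 (adjusted p = 0.318) in microglia, a difference of -1.13 (SE 0.25, adjusted p = 0.0183). Sema4a differed by -1.37 (SE 0.26, adjusted p = 0.00665) and Pfkp by -1.24 (SE 0.29, adjusted p = 0.0288), with microglia estimates of 0.78 and 0.67 that did not pass the test themselves. Ddit4 rose in both, by 0.67 in astrocytes and by 1.78 in microglia, and the difference of -1.09 passed (SE 0.23, adjusted p = 0.0119). With the mouse as a block the difference of Sgk1 was 1.29 (adjusted p = 0.0122) and that of Atf5 was 1.16 (adjusted p = 0.0128), which without the block missed the threshold (adjusted p = 0.0603 and 0.0679). The block dropped the difference of Dtna (adjusted p = 0.0568).

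Single markers of other cell types passed the test. Over all genes tested 2.91% were higher and 2.22% lower. Tubb3, a tubulin of neurons, rose from a median of 21.2 to 46.4 CPM (log2 fold change 1.09, SE 0.20, adjusted p = 0.00628) as 1 of 16 tested neuronal markers, whose median was -0.47. Mobp, a myelin gene, rose by 1.03 (SE 0.22, adjusted p = 0.0127) as 1 of 14 oligodendrocyte markers, whose median was 0.15, and lost its call with border macrophage markers held constant. Gpr17, which marks precursors committed to myelination, was at -1.40 (SE 0.40, adjusted p = 0.0488), a call missed in 13 of 17 fits without 1 mouse, and was the call among 11 precursor markers, whose median was -0.90. The summed level of the precursor list overlapped between groups, with medians of 1507 CPM in control and 1569 CPM in CIE astrocytes. The fits with precursor markers held constant used the mean log2 CPM of the members, not this sum. Of the 11 members 3 had a positive estimate. Among vascular and mural markers Slc6a13, a GABA and taurine transporter of fibroblasts, rose by 0.65 without overlap (SE 0.12, adjusted p = 0.00484).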

How the data were processed

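RNA of ACSA2-selected astrocytes from the prefrontal cortex of 8 control and 9 CIE mice was analysed, with microglia and homogenate of the same mice for the interaction tests. The authors enriched poly(A) RNA, sequenced stranded libraries, and, per their processing notes, used bcl2fastq 2.17, cutadapt 1.8, STAR 2.5.0a on mm10, Picard 1.141 and HTSeq 0.6.1p1. For each of 24421 gene symbols the authors deposited raw counts. They dropped duplicate reads with Picard before counting, which lowers abundant genes most. Annotation release and strand option are not given in the sources used here, so overlapping genes may share counts. Rows for reads not assigned to a gene (no feature 14.0 to 29.1% of reads) were left out.

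Counts were fitted with edgeR 4.0.16 in R 4.3.3 (TMM, filterByExpr, quasi-likelihood test, Benjamini-Hochberg, threshold 0.05). CPM are TMM-scaled. A standard error is the log2 fold change over the square root of F. Interactions used all 51 libraries. The same mouse gave each preparation, so it is a block in an alternative fit (median correlation of deviations 0.112 with homogenate and 0.149 with microglia, 9 of 17 pairs over 0.1 in each). Gene lists and the genes named in the text (the 12 smallest p and 10 largest changes without overlap per direction, up to 4 per list and 2 per marker list) were chosen with earlier results of these data known. Other genes named, as members of a list or from the interaction tests, were chosen after their values were seen. Alternatives were DESeq2 1.42.0, limma 3.58.1 (voom with sample weights), other scalings and filters, covariates and leaving out each mouse. Promoters were RefSeq windows on GRCm38.p6. Scripts were tested on simulated data. Depth limits low genes, and the spread is that between mice. Plots used matplotlib 3.10.9 in Python 3.11.15.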

Additional observations from a re-analysis of the deposited data

Results flagged for a closer look

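Among 358 groups of values tested for a mouse apart from the rest of its group, 11 held one, where 1 in 20 by chance would give 17.9. Control mouse 03 was low for Fgl2 (0.473 CPM), CIE mouse 24 was low for Erbb2 (13.7 CPM) and high for Ebp (39.1 CPM), and control mouse 37 was low for Scarb1 (35.2 CPM) and high for C4b (220.3 CPM). Control mouse 36 was low for Keap1 (44.5 CPM), CIE mouse 26 for Egr3 (3.42 CPM) and control mouse 05 for Cd4 (0 CPM). Control mouse 19 was high for H2-Eb1 (9.01 CPM) and control mouse 22 for Srsf10 (92.8 CPM). Summed neuron markers were high in CIE mouse 06 (934 CPM). No mouse stood apart in more than 2 of these groups.

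In tests of the difference between preparations, the astrocyte response lay below that of microglia for Mmp14 (-1.13), Zfp382 (-1.04), Dtna (-0.85), Sema4a (-1.37), Spry2 (-1.37), Pfkp (-1.24), Ddit4 (-1.09) and Vcan (-2.23), and above that of homogenate for Otof (2.12), all on the log2 scale. Dtna, Spry2 and Vcan did not pass the test within astrocytes alone.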

How the results depend on the processing

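The 661 astrocyte calls were 680 with RLE and 641 with upper quartile scaling. Alternatives are given as called genes in astrocytes, with higher genes in astrocytes and lower genes in astrocytes in parentheses. They were 1166 (636 higher, 530 lower) with DESeq2, 1129 (589 and 540) with the mouse range as covariate, 1021 (638 higher) with microglia markers as covariate, 1037 (496 lower) with limma voom and 1132 (609 and 523) in the 13 mice numbered 19 and above. They were 284 (213 and 71) with oligodendrocyte precursor markers and 139 (90 and 49) with border macrophage markers as covariate. Higher calls were 56.7% in the fit reported, 62.5% with microglia, 75% with precursor and 64.7% with border macrophage markers. The fits with precursor markers, with border macrophage markers and in the 13 mice were added once the data had been seen.

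Without 1 mouse the calls ranged from 354 (without 26) to 1001 (without 08), with 358 without 22, 370 without 36 and 417 without 24. Higher calls ranged from 194 (without 36) to 476 and lower calls from 144 (without 22) to 525. Of 106 named calls 75 held in every such fit and 41 of these in each other fit too, while 63 were lost with border macrophage and 40 with precursor markers as covariate. The cause was not tested.

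With the mouse as replicate block the response differed from homogenate in 1 gene and from microglia in 85 genes, against 1 and 76. With RLE scaling homogenate gave 0, and with microglia and astrocytes alone in the fit 44 genes differed. Without 1 mouse the counts were 0 to 2 and 23 to 124. Signs turned among named genes only for 4 that were not called. The Aldh1l1 log2 fold change was 0.00102 with voom, 0.072 with precursor and 0.024 with border macrophage markers, 0.038 in the 13 mice and between -0.10 and 0.014 without 1 mouse. With border macrophage markers the C1qc log2 fold change was -0.068 and the Cd4 log2 fold change -0.32, and the Csf3r log2 fold change was between -0.26 and 0.044 without 1 mouse. Low counts limit genes near 1 CPM, such as Ch25h.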
